A study of Mus musculus with 2 samples.

Results

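TRAV segments are the variable gene segments of the T cell receptor (TCR) α chain, and their transcripts were counted here in single thymocytes sorted as invariant natural killer T (iNKT) cells. The members were the 128 of 32285 gene rows whose symbol starts with Trav, of which 3 are copies of Trav11 and 125 are other segments. They were read in 10007 of 16179 cell barcodes, namely those with at least 1000 detected genes, at most 5% mitochondrial UMIs (unique molecular identifiers, 1 per counted transcript molecule) and a single leading hashtag antibody row (80% or more of the hashtag UMIs, with 10 or more in all). In these cells 108 of the 128 segments had a UMI and 64 had at least 20, with 11786 TRAV UMIs in all.

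The study compared T cell-specific Kidins220 knockout mice (T-KO; floxed Kidins220 alleles deleted by Cre under the proximal Lck promoter, which acts in early thymocytes) with control mice (Ctrl) on the C57BL/6 background, all untreated. Thymic cells of 4 mice were pooled per genotype, and each pool was sorted into stage 0 (TCRβ+ CD1d tetramer+ CD24+ NK1.1-) and stage 3 (TCRβ+ CD1d tetramer+ NK1.1+ CD24- CD44+) iNKT cells. This was done in duplicate, so that 8 populations were hashtagged and run as 1 pooled droplet library read from the 5′ end. The labels pair hashtags 1 to 8 with populations, but 99.9% of the hashtag UMIs lay on the rows HASH_11 to HASH_18, which no source used here pairs with a population. The rows were therefore given neither a stage nor a genotype, and no Ctrl to T-KO comparison was made. No test over the rows was run, because they carry no group and because an exact two-sided sign-flip test of within-row differences over 4 rows could not go below p = 0.125. The 95% intervals given (exact Clopper-Pearson for shares, exact Poisson for levels) cover counting error only.

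Developing T cells assemble the α chain by cutting and joining 1 V segment to 1 J segment with the RAG1 and RAG2 recombinase, at the stage when both CD4 and CD8 are present. The V segments lie in a long array upstream of the J segments, and the joining removes the DNA in between, including the TCR δ genes. The locus can be rearranged again, so that V segments farther upstream can replace those nearer to the J segments. Some V segments carry dv in their name because they are also joined to δ chain segments. In mouse iNKT cells Trav11, known as Vα14, is joined to Traj18 in an almost invariant α chain that binds CD1d with lipid.

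In the genome build of the counts (mm10, here GRCm38 with GENCODE M21 positions) all 128 segments were found on the plus strand of chromosome 14, between 52427928 (Trav1) and 53977678 (the end of Trav23). The array of 1550 kb ended 177 kb before Traj61, the first J segment, and Trdc, the TCR δ constant gene, lay between them at chr14:54142851-54148868. GENCODE annotated 108 of the segments as V genes and 20 as V pseudogenes. Segment numbers follow the array only loosely, since a large block was copied, giving 39 segments marked d and 34 marked n besides 55 without such a mark. Of the 75 segments numbered 1 to 10, 19 lay in the proximal part of the array (the third of its length nearest to the J segments), against 22 of the 50 segments numbered 12 and above. In the distal part the counts were 26 and 7. Number and position were therefore used side by side.

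Trav11 has 2 copies in the array, and their exons show how far the counts can tell them apart. The V exon of Trav11d is identical to that of Trav11 over its 290 bases. The V exon of Trav11n, annotated as a pseudogene, differs from Trav11 at 6 of 291 bases, which are in capitals in both (GRCm38, plus strand).
Trav11 chr14:53519569-53519859: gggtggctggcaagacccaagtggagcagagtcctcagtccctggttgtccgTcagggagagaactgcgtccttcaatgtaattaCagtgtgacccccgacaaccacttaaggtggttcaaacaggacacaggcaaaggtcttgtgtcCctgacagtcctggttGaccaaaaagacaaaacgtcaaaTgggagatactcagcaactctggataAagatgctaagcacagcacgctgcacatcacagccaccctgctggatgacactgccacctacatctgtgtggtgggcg
Trav11n chr14:53135388-53135678: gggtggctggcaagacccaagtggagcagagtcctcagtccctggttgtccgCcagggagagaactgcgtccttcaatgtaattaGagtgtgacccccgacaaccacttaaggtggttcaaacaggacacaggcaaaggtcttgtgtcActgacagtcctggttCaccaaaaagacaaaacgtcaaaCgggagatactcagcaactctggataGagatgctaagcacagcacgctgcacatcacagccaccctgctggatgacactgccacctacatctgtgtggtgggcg
Only 1 of the 254 stretches of 90 bases in the annotated Trav11 transcript was found in no other TRAV transcript, and none of the 253 of Trav11d was. A read within the shared stretches cannot be assigned to 1 of these copies, and how this acted on the share of Trav11 was not tested. The 3 copies were summed, except where the UMIs assigned to each are given.

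The ends of 5 V exons that carry the results below are shown with the first bases after them, since this is where recombination cuts. They run from the most distal segment (Trav1) to the most proximal of the abundant ones (Trav21-dv12). Capitals mark the 7 bases that directly follow the exon and the 9 bases behind a spacer of 23, the positions of the heptamer and nonamer of a recombination signal.
Trav1 chr14:52428847-52428915: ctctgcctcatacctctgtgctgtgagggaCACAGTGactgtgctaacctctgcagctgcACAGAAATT
Trav11 chr14:53519830-53519898: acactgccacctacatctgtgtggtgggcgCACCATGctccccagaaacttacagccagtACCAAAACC
Trav15-2-dv6-2 chr14:53649965-53650033: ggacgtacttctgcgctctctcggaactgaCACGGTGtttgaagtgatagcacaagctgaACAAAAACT
Trav3-3 chr14:53666477-53666545: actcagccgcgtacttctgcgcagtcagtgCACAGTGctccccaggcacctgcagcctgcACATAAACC
Trav21-dv12 chr14:53876723-53876791: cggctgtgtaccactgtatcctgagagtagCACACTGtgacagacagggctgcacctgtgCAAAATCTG
Of the 128 V exons, 97 (75.8%) were followed on the plus strand by the letters CACAGTG at this position, and 119 by CAC. Among the 5 shown, Trav1 and Trav3-3 had these 7 letters and the other 3 did not. The full 7 letters followed 87 of the 108 segments with a UMI and 10 of the 20 without one. The J partner of the invariant chain, Traj18, has the following sequence.
Traj18 chr14:54200777-54200842: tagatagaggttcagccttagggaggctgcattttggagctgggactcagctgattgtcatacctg

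Trav11 was abundant in the 4 even-numbered rows and almost absent from the 4 odd-numbered rows. The Trav11 copies made up 27.6% of the TRAV UMIs in HASH_12, 27.7% in HASH_14, 31.9% in HASH_16 and 31.1% in HASH_18. In the odd rows they made up 0.713% in HASH_11, 0.171% in HASH_13, 0.833% in HASH_15 and 0.532% in HASH_17. No odd row came near an even row. Summed, the share was 29.0% (95% interval 27.6 to 30.3) of 4374 TRAV UMIs in the even rows and 0.486% (0.340 to 0.672) of 7412 in the odd rows. Trav11 itself held 22.6% and Trav11d 6.33% in the even rows, and Trav11n had 1 UMI. Of the TRAV UMIs counted in the even rows, most were thus assigned to segments other than Trav11. Reads that fit several copies are not counted, however, and Traj18 held 77.4% of the 287 J segment UMIs of these rows. How many α chain transcripts of the even rows carried Trav11 was not tested.

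The rows also differed in the genes that define the sorted stages and in other cell types. Cd24a, whose protein was required in the stage 0 gate, was at 313 to 365 counts per 1000000 UMIs (CPM) in the odd rows and at 23.3 to 34.2 in the even rows. Klrb1c, which encodes NK1.1, was at 4.78 to 6.57 CPM in the odd and 328 to 444 CPM in the even rows. Zbtb16, the transcription factor PLZF that directs iNKT development, was at 4.72 to 7.41 CPM in the odd rows against 64.7 to 74.7 in the even rows. Traj18 was at 0.205 to 0.370 CPM in the odd rows and 8.75 to 13 in the even rows, where it gave 222 of the 287 UMIs on J segments. Trac, the α constant gene, reached 34 to 64.3 CPM in the odd and 184 to 214 CPM in the even rows, and Trdc showed the opposite order with 58.0 to 130 against 9.64 to 11.8 CPM. The B cell gene Cd79a was at 228 to 560 CPM in the odd rows and at 16.7 to 28 in the even rows, so the odd rows also held cells outside the T lineage. Summed over all their cells, the odd rows thus held little Trav11, Traj18 and Zbtb16. Kidins220 itself was at 19.7 CPM in HASH_11, 28.4 in HASH_12, 21 in HASH_13, 35.2 in HASH_14, 14.5 in HASH_15, 17.5 in HASH_16, 13.9 in HASH_17 and 20.4 in HASH_18. No row lacked it, and where its reads lie relative to the floxed part of the gene was not tested.

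**Figure D1:**
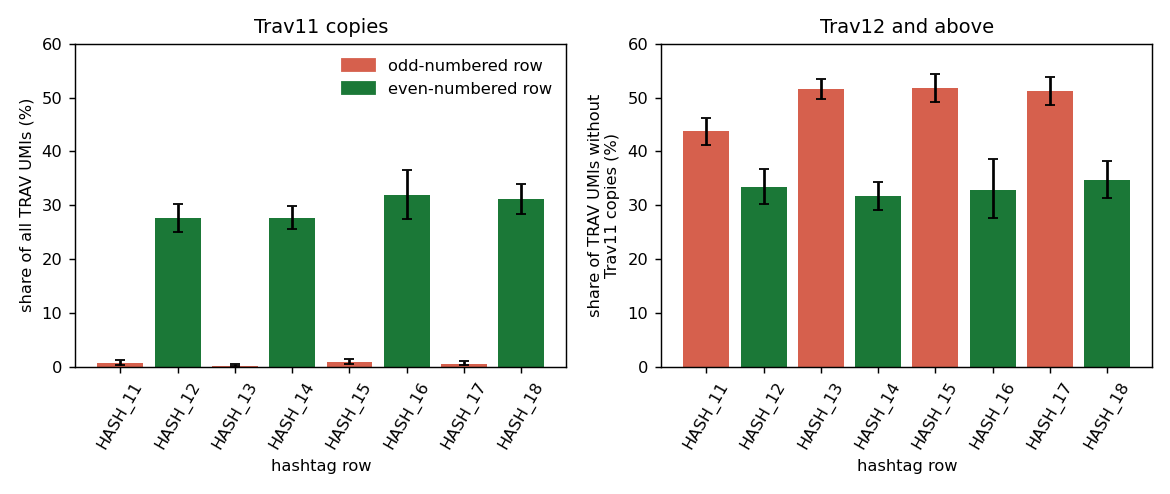
Share of the Trav11 copies among all TRAV UMIs (left, %) and share of segments Trav12 and above among the TRAV UMIs without the Trav11 copies (right, %) in each of the 8 hashtag rows; bars are the share over the cells of a row and lines the 95% exact binomial interval. The Trav11 copies reach 27.6 to 31.9% in the even rows and at most 0.833% in the odd rows, while Trav12 and above reach 43.8 to 51.9% in the odd and 31.7 to 34.7% in the even rows.

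Among the other segments, the high-numbered ones (Trav12 and above) took a larger share in the odd than in the even rows. They made up 43.8% in HASH_11, 51.6% in HASH_13, 51.9% in HASH_15 and 51.3% in HASH_17. In the even rows the values were 33.5% in HASH_12, 31.7% in HASH_14, 32.9% in HASH_16 and 34.7% in HASH_18. The groups of rows did not overlap, and HASH_11 stood closest to the even rows. Among the segments without dv, however, the groups overlapped, with 29.5 to 38.9% in the odd and 23.8 to 30.5% in the even rows. There HASH_11 (29.5%) lay below HASH_12 (29.9%) and HASH_18 (30.5%). Summed, these shares were 34.2% in the odd and 28.2% in the even rows. With the dv segments counted again, the order was turned for the distal part of the array. It held 9.96 to 19.1% in the odd and 25.4 to 30.7% in the even rows. From Trav17 on the odd rows had 5.25 to 10.5% and the even rows 0.827 to 6.44%, with HASH_16 above HASH_15. The share of the proximal part overlapped between the groups, at 52.1 to 61.7% and 48.5 to 60%. Distances between whole segment profiles (the percentage points of UMIs that would have to move to turn 1 profile into the other) were 18.7 to 29.5 between odd rows, 15.7 to 35.2 between even rows and 29.0 to 49.6 between an odd and an even row. The even row with the fewest TRAV UMIs, HASH_16 with 433, was farthest from the other even rows.

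The cells of the odd rows were then divided by 2 transcripts that mark steps of selection. Rag1, the recombinase gene, was detected in 495 cells (Rag1+ cells). Of the rest, 1210 had at least 2 UMIs of Ikzf2 (Ikzf2+ cells), which encodes Helios, a transcription factor raised after strong TCR signals in thymocytes, and 2544 were left as remaining cells. Some of the stage genes that the division did not use were 2-fold or more apart between the classes. Cd8b1, a chain of the CD8 coreceptor, was at 322 CPM in Rag1+ and 71.1 CPM in Ikzf2+ cells. In the other direction Egr2, induced by TCR signals, was at 1.02 and 34.6 CPM, and Il2rb, an interleukin receptor chain found on iNKT1 cells, at 9.21 and 198 CPM. Other stage genes were less than 2-fold apart on the scale of CPM plus 10, among them Cd24a (378 and 336 CPM), Cd4 (18.6 and 8.98 CPM), Klrb1c (4.82 and 5.92 CPM) and Tbx21 (2.48 and 4.64 CPM), a transcription factor of iNKT1 cells. Zbtb16 stood at 1.02 CPM in the Rag1+ and 12.1 CPM in the Ikzf2+ cells, just over 2-fold apart on that scale, against 71.5 CPM in the even rows. The remaining cells were mixed: 618 of the 2544 carried B cell transcripts (at least 2 Cd79a UMIs and no Cd3e) and 652 myeloid transcripts (at least 5 UMIs of Lyz2, Csf1r and Cst3 without Cd3e and Cd79a).

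TRAV transcripts were several times more abundant in the Ikzf2+ cells than in the Rag1+ cells. Their summed level in Rag1+ cells was 174 CPM in HASH_11, 98.3 in HASH_13, 73.4 in HASH_15 and 97.6 in HASH_17. In Ikzf2+ cells it was 421 CPM in HASH_11, 492 in HASH_13, 387 in HASH_15 and 496 in HASH_17. The classes did not overlap in any row. Over the 4 rows the levels were 101 CPM (94.0 to 109), 457 CPM (444 to 470) and, in the remaining cells, 96.7 CPM (92.6 to 101), against 213 CPM (207 to 220) in the even rows. Trac was also highest in the Ikzf2+ class of the odd rows, with 19.0 CPM in Rag1+, 106 in Ikzf2+ and 20.8 in the remaining cells, but unlike TRAV it was higher still in the even rows, at 199 CPM. Trdc was at 159 CPM in Rag1+, 102.6 in Ikzf2+ and 74.9 in the remaining cells. Tcrg-C1 and Tcrg-C2, constant genes of the TCR γ chain, were lower in Rag1+ than in Ikzf2+ cells. Tcrg-C1 was at 42.1 CPM in Rag1+, 114 in Ikzf2+ and 91.6 in the remaining cells, and Tcrg-C2 at 46.2, 102 and 58.1 CPM. A TRAV UMI was found in 45.1% of Rag1+ cells (median depth 13726 UMIs), 74.0% of Ikzf2+ cells (5815.5 UMIs) and 45.4% of even-row cells (3400.5 UMIs). With every cell thinned to 3000 UMIs, which left out 62, 186 and 1959 shallower cells, the shares were 19.6%, 60.4% and 41.1%. In cells that should lack these transcripts, 8.41% of the B cell class and 6.26% of the myeloid class had a TRAV UMI. When thinned the values were 2.5% and 1.80%, and the levels were 11.2 and 6.51 CPM (median depths 5814 and 10211 UMIs). Both classes were chosen to have no Cd3e UMI, which leaves out cells with more free T cell RNA. These values may therefore lie below the background of the T cell classes.

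Rag1+ and Ikzf2+ cells differed in which segments they used, with high-numbered segments more frequent in Rag1+ cells. Among TRAV UMIs without the Trav11 copies, Trav12 and above made up 54.3% of the Rag1+ cells' UMIs in HASH_11, 80.5% in HASH_13, 81.1% in HASH_15 and 70.8% in HASH_17. In Ikzf2+ cells the share was 42.4% in HASH_11, 44.2% in both HASH_13 and HASH_15, and 45.8% in HASH_17. Every row had the higher share in Rag1+ cells, and the Ikzf2+ values lay much closer together. Summed, the shares were 72.7% (69.2 to 76.0) of 688 UMIs and 44.3% (42.9 to 45.8) of 4625 UMIs, a difference of 28.3 percentage points (interval 24.6 to 31.8, Newcombe). The remaining cells lay between them at 55.0% (52.8 to 57.2), and the even rows below all 3 classes at 33.0% (31.4 to 34.7). Counting only from Trav17 on, the shares were 14.1% in Rag1+, 7.57% in Ikzf2+ and 2.00% in even-row cells, but 1 segment, Trav21-dv12, carried this order. The other 6 segments together gave 0.727% (0.236 to 1.69) in Rag1+ and 1.60% (1.26 to 2.00) in Ikzf2+ cells, the opposite direction. Without HASH_13 the Trav17 difference was 3.09 points in place of 6.53.

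Position in the array showed the same contrast in a smaller form. The proximal part held 64.0% of the UMIs of Rag1+ cells in HASH_11, 81.2% in HASH_13, 72.7% in HASH_15 and 64.2% in HASH_17. In Ikzf2+ cells it held 53.2% in HASH_11, 58.5% in HASH_13, and 59.5% in both HASH_15 and HASH_17. The classes did not overlap, and the summed difference was 14.2 points (10.5 to 17.7). It was 9.0 points without HASH_13, 6.62 without the dv segments and 9.19 in cells without a UMI of Trdc. The distal part held 7.27% of the UMIs in Rag1+ cells, 16.6% in Ikzf2+, 13.5% in the remaining cells and 28.5% in the even rows. In HASH_17 the distal shares of Rag1+ and Ikzf2+ cells were 10.0% and 10.1%, so that this row showed almost no distal difference.

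**Figure D2:**
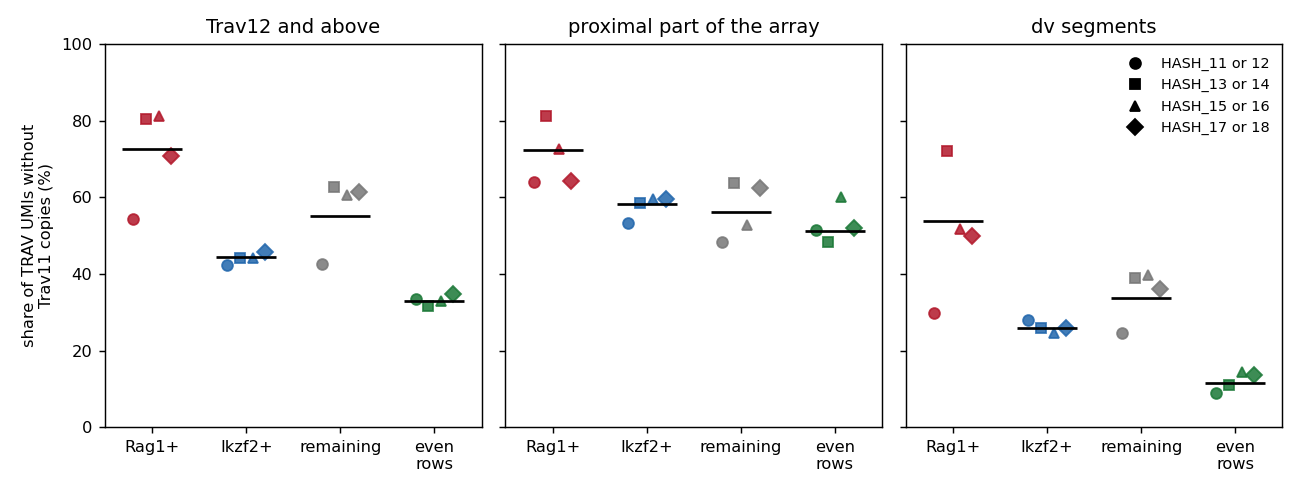
Share (%) of TRAV UMIs without the Trav11 copies that fell on Trav12 and above, on the proximal part of the array and on dv segments, for the Rag1+, Ikzf2+ and remaining cells of the odd rows and for the even rows; each point is 1 hashtag row and each line the share summed over the rows. Rag1+ cells lie highest (sums of 72.7, 72.4 and 53.9%) and the even rows lowest (33.0, 51.3 and 11.6%).

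**Figure D3:**
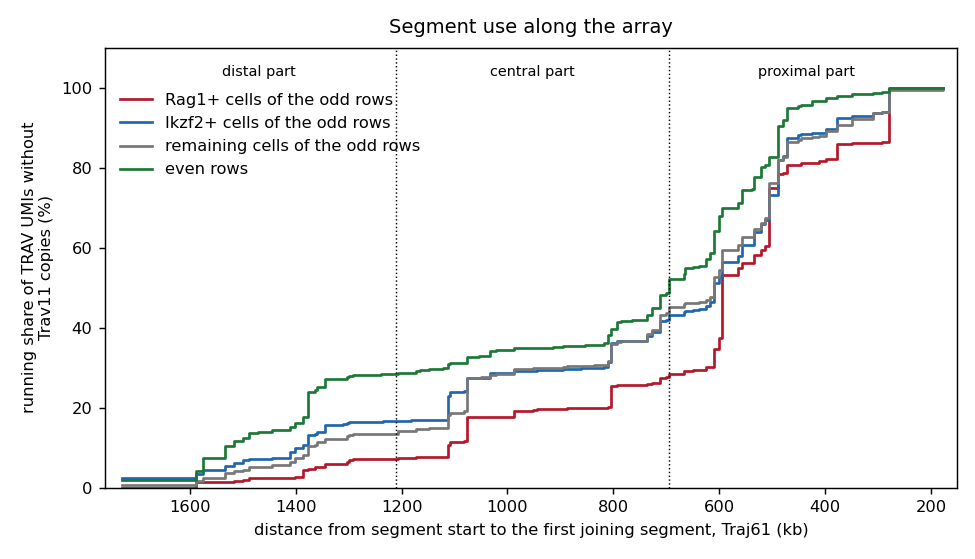
Running share (%) of TRAV UMIs without the Trav11 copies, summed from the distal to the proximal end of the array, against the distance (kb) of each segment's start from Traj61; 1 line per class of cells, with dotted lines between the distal, central and proximal parts. The even rows have reached 28.5% at the end of the distal part and the Rag1+ cells 7.27%.

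The segments also used by δ chains carried much of this difference. The 10 dv segments held 29.9% of the UMIs of Rag1+ cells in HASH_11, 72% in HASH_13, 51.7% in HASH_15 and 50% in HASH_17, and 27.9%, 25.8%, 24.7% and 26.0% of those of Ikzf2+ cells in the same rows. HASH_11 showed the smallest difference and HASH_13 the largest. Over all rows the dv share was 53.9% (50.1 to 57.7) in Rag1+, 25.9% (24.7 to 27.2) in Ikzf2+, 33.6% (31.6 to 35.7) in the remaining cells and 11.6% (10.5 to 12.7) in the even rows. Without HASH_13 the dv shares were 42.9% in Rag1+ and 26% in Ikzf2+ cells, a difference of 16.9 points. Among the segments without dv, Trav12 and above still made up 46.1% (40.5 to 51.7) in Rag1+ and 31.3% (29.7 to 32.9) in Ikzf2+ cells, higher in Rag1+ cells in 4 of 4 rows.

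Cells in which the δ constant gene was read used dv and high-numbered segments more in every class. A Trdc UMI was found in 50.9% of Rag1+, 22.6% of Ikzf2+, 15.4% of the remaining and 3.28% of the even-row cells. In Rag1+ cells the dv share was 35.0% (29.8 to 40.5) without and 70.7% (65.7 to 75.3) with a Trdc UMI, and in Ikzf2+ cells 17.8% (16.6 to 19.1) and 56.2% (53.0 to 59.3). The even rows showed the same direction at 10.7% and 33.6%, the latter from 122 UMIs. For Trav12 and above the values were 59.8% and 84.1% in Rag1+ cells, and 35.4% and 77.7% in Ikzf2+ cells. Both shares were higher with Trdc in 4 of 4 rows in each of the 4 groups. In the even row HASH_16, however, the cells with Trdc gave only 9 UMIs, and Trav12 and above were near equal at 33.3% against 32.9%. Cells with a Trdc UMI were also deeper (medians of 18541 against 6894 UMIs in Rag1+ and 13376 against 4994 in Ikzf2+ cells), and the part of depth in this contrast was not tested. In the even rows the medians were 3503 and 3396 UMIs.

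**Figure D4:**
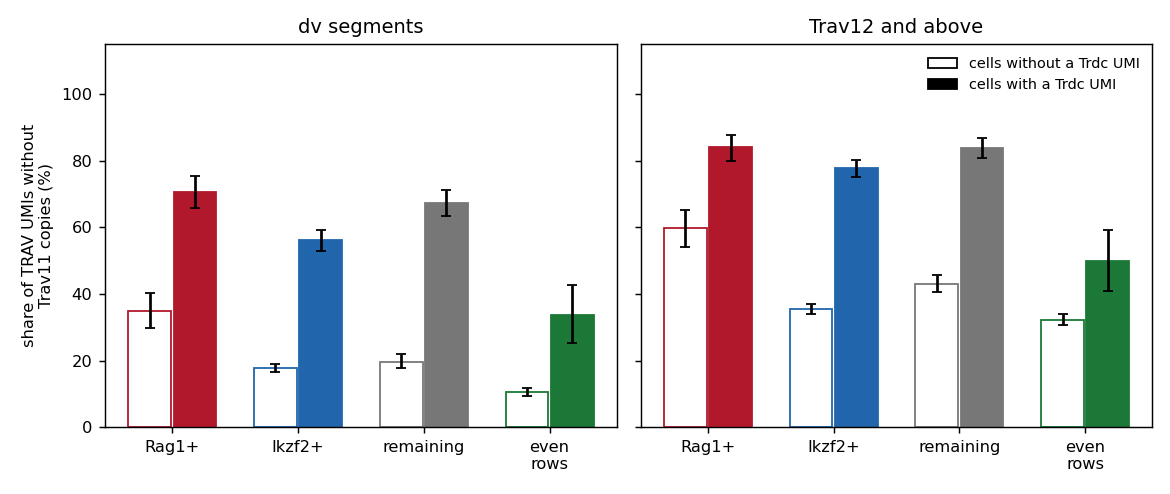
Share (%) of TRAV UMIs without the Trav11 copies on dv segments (left) and on Trav12 and above (right) in cells without (open bars) and with (filled bars) a Trdc UMI, for the 3 classes of the odd rows and for the even rows; lines are 95% exact binomial intervals. The filled bar is higher in every class, from 33.6 to 70.7% against 10.7 to 35.0% for dv segments.

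The segments with the largest excess in Rag1+ over Ikzf2+ cells were 3 proximal dv segments. Trav15-1-dv6-1 (chr14:53559632-53560247) took 7.93% of the UMIs of Rag1+ cells in HASH_11, 14.6% in HASH_13, 24.5% in HASH_15 and 18.3% in HASH_17, and 6.24%, 3.50%, 2.66% and 3.72% of those of Ikzf2+ cells. It was higher in Rag1+ cells in 4 of 4 rows, and summed it made up 15.7% (13.1 to 18.6) against 3.76% (3.23 to 4.35). Trav15-2-dv6-2 (chr14:53649404-53649994) followed with 14.5% (12 to 17.4) against 6.18% (5.51 to 6.92), higher in 3 of 4 rows, and its difference of 8.35 points was 4.80 without HASH_13. Trav21-dv12 (chr14:53875984-53876752), 279 kb from Traj61, took 11.6%, 21.5%, 5.59% and 7.5% of the UMIs of Rag1+ cells in HASH_11, HASH_13, HASH_15 and HASH_17, and 5.77%, 7.96%, 3.41% and 4.58% of those of Ikzf2+ cells. It was higher in Rag1+ cells in 4 of 4 rows, but HASH_13 stood out: 56 of the 92 Rag1+ UMIs came from 11 cells of that row, and 1 Ikzf2+ cell of it held 52 UMIs. Summed, the shares were 13.4% (10.9 to 16.1) and 5.97% (5.30 to 6.69), and without HASH_13 they were 8.43% and 4.45%. In the even rows these 3 segments held 2.06%, 2.03% and 1.19%. Among segments with at least 100 UMIs over both classes, Trav14d-3-dv8 (6.10% against 3.26%) and Trav3-4 (3.63% against 2.66%) came next, each higher in 2 of 4 rows. Neither difference was stable: that of Trav14d-3-dv8 was 0.24 points without HASH_13, and that of Trav3-4 was -0.99 points without HASH_11.

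Among segments with at least 100 UMIs over both classes, those with the largest deficit in Rag1+ cells lay in all parts of the array. Most TRAV UMIs were in Ikzf2+ cells, and each segment named here as lower in Rag1+ cells passed that limit through the Ikzf2+ cells alone. The list therefore describes the segments that passed. Trav3-3 (chr14:53665929-53666506), which lies in the proximal part although it has a low number, was among the most used segments of both odd (7.35%) and even rows (7.79%). In Ikzf2+ cells it made up 8.89% in HASH_11, 9.36% in HASH_13, 8.84% in HASH_15 and 6.97% in HASH_17, and in Rag1+ cells 5.49%, 3.83%, 2.10% and 1.67%. It was lower in Rag1+ cells in 4 of 4 rows, with 3.49% (2.25 to 5.15) against 8.65% (7.85 to 9.50). Trav1 (chr14:52427928-52428876), at the far end of the array, had 0 of 688 UMIs in Rag1+ cells and 111 of 4625 (2.40%) in Ikzf2+ cells. If UMIs were independent, its count of 0 would allow a share of up to 0.436% (taken as 3 counts of the total, here and for other counts of 0). Few cells gave the Trav1 UMIs, however: 39 came from 4 cells of HASH_11, with 30 in 1 cell, and 69 from 8 cells of HASH_13. Trav8d-2 had 5.97% in Ikzf2+ and 3.05% in Rag1+ cells, Trav4-4-dv10 had 4.48% and 2.03%, and Trav8d-1 had 2.59% and 0.436%, each higher in Rag1+ cells in 1 of 4 rows. Among the segments lower in Rag1+ cells, some differences moved by more than 1.5 times with a row left out: that of Trav4-4-dv10 was -4.35 points without HASH_13 against -2.44 over all rows, that of Trav8d-1 -1.38 without HASH_15 against -2.16, and that of Trav1 -1.60 without HASH_13 against -2.40. Trav8d-2 rested on few cells as well: in HASH_17 it made up 15% in Rag1+ cells from 1 cell with 18 UMIs, and 14.5% in Ikzf2+ cells from 18 cells, 1 of them with 39. Without HASH_17 its shares were 0.528% in Rag1+ and 3.47% in Ikzf2+ cells. At the other end of the array Trav23 had 18 UMIs in the odd rows and none of 3107 in the even rows, which allows up to 0.0966%. Its neighbour Trav22 had none of the 11786 UMIs, which allows up to 0.0255%.

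The even rows had a larger share of their UMIs on the distal part than the odd rows (28.5% against 14.9%), with fewer on the leading segments. The proximal part still held most of the UMIs, 51.3% in the even and 59.0% in the odd rows, with overlapping row ranges. Counted by the segment with most UMIs in a cell, 86 segments led in the even rows and 85 in the odd rows. Their 10 leading segments other than Trav11 held 42.3% of the UMIs, against 53.1% for the leading 10 of the odd rows, and 4 segments (Trav3-3, Trav13-1, Trav7-3 and Trav4-4-dv10) were in both sets. Trav8d-1 (chr14:52778447-52778995), 1377 kb from Traj61, made up 5.08% in HASH_12, 6.76% in HASH_14, 10.5% in HASH_16 and 4.95% in HASH_18, above the 1.27 to 3.92% of the odd rows. Trav3-1 and Trav5-1, both distal, each held 3.19% in the even rows against 0.759% and 1.02% in the odd rows. Trav13-1 was about as frequent in both (5.44% and 4.85%). Of the leading 10, 5 segments carried dv in the odd rows and 1 in the even rows.

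**Figure D5:**
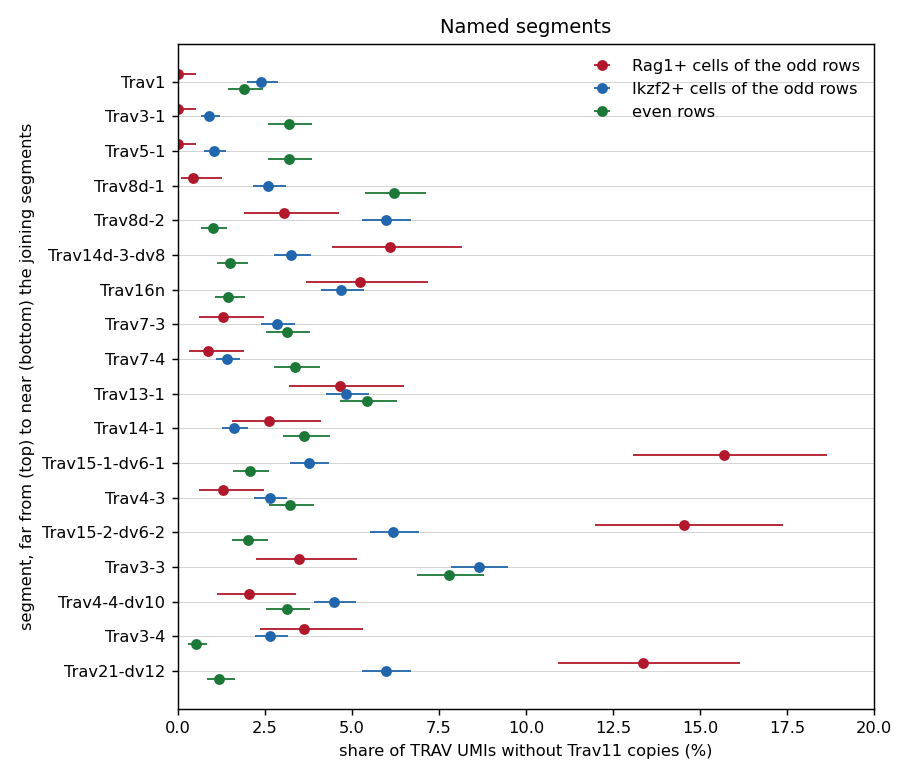
Share (%) of TRAV UMIs without the Trav11 copies for each named segment, ordered from the distal (top) to the proximal end (bottom) of the array, in Rag1+ and Ikzf2+ cells of the odd rows and in the even rows; points are shares summed over rows and lines 95% exact binomial intervals. Trav15-1-dv6-1, Trav15-2-dv6-2 and Trav21-dv12 reach 13.4 to 15.7% in Rag1+ cells, and Trav8d-1 6.21% in the even rows.

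In levels rather than shares, the summed TRAV level of 101 CPM in Rag1+ and 457 CPM in Ikzf2+ cells was spread over many segments. Of the 46 segments with at least 20 UMIs over both classes, 9 were at least 2-fold higher in Ikzf2+ cells on the scale of CPM plus 10, and none was 2-fold higher in Rag1+ cells. Of all 11851 genes with that many UMIs, 3.34% were 2-fold higher in Ikzf2+ and 0.447% in Rag1+ cells. Since most TRAV UMIs were in Ikzf2+ cells, segments such as Trav1, with no UMI in Rag1+ cells, reached the 20 UMIs through the Ikzf2+ cells alone, and the counts are given as a description of the segments that did. The 9 were Trav3-3 (log2 ratio -1.87), Trav8d-2, Trav4-4-dv10, Trav13-1, Trav1, Trav8d-1, Trav12-3, Trav16n and Trav7-3. Trav15-1-dv6-1 was near equal at -0.08, since its larger share was of a smaller total. With 1 CPM added instead of 10, 40 of the 46 segments and 10.6% of all genes were 2-fold higher in Ikzf2+ cells, so the count depends strongly on how low levels are treated.

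Of 12 other genes of recombination and of double-positive survival, 11 had enough UMIs, and 3 of these were 2-fold higher in Rag1+ cells, where 0.447% of all genes were, and none in Ikzf2+ cells, where 3.34% were. Rag2, the partner of Rag1, was at 41.4 against 9.08 CPM, and Dntt, which adds bases at the joints, at 738 against 297 CPM. Xrcc6, which encodes the DNA end-binding protein Ku70, was at 326 against 141 CPM. The other 8 (Lig4, Xrcc4, Xrcc5, Prkdc, Dclre1c, Polm, Poll and Bcl2l1) were within 2-fold. The δ variable genes did not move as 1 group: Trdv1 was at 4.97 CPM in Rag1+ and 43.3 CPM in Ikzf2+ cells, Trdv2-2 at 43.5 and 32.2 CPM, and Trdv5 at 6.58 and 14.2 CPM.

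Many single cells showed more than 1 segment. Of all cells with a TRAV UMI, 75.5% in the even rows, 60.1% of the Rag1+ and 46.7% of the Ikzf2+ cells had 1 segment, but 61.4%, 38.6% and 22.1% had a single UMI and could show no other. Of the even-row cells with at least 2 TRAV UMIs, 36.4% (33.4 to 39.4, of 1009 cells) had all of them on 1 segment, and 91.4% on at most 2. In Rag1+ cells 35.0% (27.1 to 43.6, of 137) and in Ikzf2+ cells 31.6% (28.1 to 35.2, of 697) had 1 segment, and 83.2% and 76.0% at most 2. Counting all segments of 1 number as 1 raised the values to 43.5%, 42.3% and 40.6%. Both α alleles can be rearranged in a T cell, those reads of near-identical copies that are counted may be divided between them, and free RNA adds UMIs. Their parts were not tested. Of the cells with a TRAV UMI, 2197 of 2617 in the even and 1542 of 1799 in the odd rows were counted once each, for the segment with most UMIs. Trav11 led 30.8% (28.8 to 32.7) of these even-row cells and 1.17% of these odd-row cells.

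Within the even rows, cells with and without a Trav11 read both carried iNKT transcripts. A Trav11 copy was read in 1056 of 5758 cells (18.3%), alone in 654 and with other segments in 402, while 1561 had other segments only and 3141 no TRAV UMI. Klrb1c was at 442 CPM in cells with and 399 CPM in cells without a Trav11 read, and Zbtb16 at 76.7 and 70.3 CPM. A Traj18 UMI was found in 5.11% (3.86 to 6.62) and 3.38% (2.88 to 3.94) of them, against 0.259% of the odd-row cells. Of the UMIs on other segments, 54.1% (50.1 to 58.1) in cells with Trav11 and 55.7% (53.7 to 57.6) in cells without it fell on segments upstream of Trav11. The same share was 43.7% in the odd rows. Since only 45.4% of the even-row cells had any TRAV UMI, a cell without a Trav11 read cannot be called free of it.

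The 20 segments without a UMI included 13 of the 20 pseudogenes and 7 V genes. For 7 of the 20 segments no stretch of 90 bases of the annotated transcript was their own, and the same held for 31 of the 108 segments that had a UMI. The pseudogenes together had 120 of the 11786 UMIs. The copies marked d held 16.2 to 27.2% and those marked n 5.42 to 11.4% of the other UMIs over the 8 rows, with overlapping ranges in odd and even rows.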

How the data were processed

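The authors deposited 1 matrix of counts (UMIs per gene and barcode), made with Cell Ranger 6.0.0 and an mm10 reference of unstated release; the study used Seurat afterwards. Reads that fit several genes are not counted by this tool, which touches near-identical segments. Doublets were treated only through the hashtag rule; no doublet caller was run. UMIs were summed over kept cells per hashtag row and class with numpy 2.4.6 and scipy 1.17.1; CPM are per 1000000 gene UMIs. Gene UMIs per row ranged from 2283162 to 14601545. The 12 other hashtag rows were not used. No test between groups was run. Named segments were the 10 leading ones of the odd and of the even rows, the 5 largest positive and negative differences in share among segments with at least 100 UMIs over Rag1+ and Ikzf2+ cells, the ends of the array and the Trav11 copies. B cell and myeloid classes were set after the data were seen. Alternatives covered hashtag, gene and UMI limits, the class limits, the unit and each row left out. The intervals and the 2-fold rule were tested on simulated data. The members and gene lists were chosen with earlier results of these data known. Sequences come from the RefSeq FASTA of GRCm38.p6. An item of the gene lists is not reported here.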

Additional observations from a re-analysis of the deposited data

Results flagged for a closer look

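With 4 values per group, a value is named here when its gap to the nearest other value, as a part of the range of the group, exceeds Dixon's 95% critical value for 4 values; 22 such groups of row values were looked at, and chance alone gives about 1 in 20. HASH_11 was low for 3 of them. Its share of Trav12 and above over all its cells was 43.8%, against 51.3 to 51.9% in the other odd rows. In its remaining cells that share was 42.6% against 60.5 to 62.6%, and in its Ikzf2+ cells the share of the proximal part was 53.2% against 58.5 to 59.5%. The same row had the fewest cells with a Trdc UMI, 11.8% against 24.4 to 26.9% in the other odd rows, and Lyz2 at 138 CPM against 28.3 to 106 CPM; their part in its low shares was not tested.

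A Trav11 signal was also present in barcodes that the comparisons did not use. In the 2140 barcodes that passed the gene and mitochondrial limits but had no single leading hashtag row, the Trav11 copies made up 10.3% (95% exact interval 9.38 to 11.3) of 3947 TRAV UMIs, between the odd and the even rows, and Trav12 and above 43.1% of the others. Their median depth was 7131.5 UMIs.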

How the results depend on the processing

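The Rag1+ to Ikzf2+ differences in the shares of Trav12 and above and of the proximal part were above 0 in 34 of 35 alternative values; the exception was the share from Trav17 on without Trav21-dv12. With each hashtag row left out in turn, the share of Trav12 and above ranged from 67.9 to 78.4% in Rag1+, 43.9 to 44.7% in Ikzf2+ and 51.4 to 61.8% in the remaining cells and 32.5 to 33.9% in the even rows; the Trav11 share ranged from 28.2 to 29.7% in the even and 0.402 to 0.691% in the odd rows, and the 2 differences from 23.5 to 33.8 and 9.0 to 16.3 points. Without HASH_13 the proximal difference was 9.0 points, more than 1.5 times smaller than the 14.2 over all rows.

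Values that moved by more than their counting interval were these. With at most 4000 genes per cell, Trav12 and above made up 68.8% in Rag1+, 40.1% in Ikzf2+ and 48.6% in the remaining cells, and the proximal difference was 19.0 points. With cells as the unit, the Trav11 shares were 30.8% and 1.17%, Trav12 and above 47.6% in Ikzf2+ cells and the proximal difference 18.4 points. In cells with 2 or more TRAV UMIs the Trav11 shares were 25.6% and 0.278%. With at least 2 Rag1 UMIs, Rag1+ cells had 78.9% and the differences were 34.6 and 20.4 points; with at least 1 Ikzf2 UMI, Ikzf2+ cells had 46.7%. From Trav17 on the shares were 14.1%, 7.57%, 9.31% and 2.00% in Rag1+, Ikzf2+, remaining and even-row cells, a difference of 6.53 points, and with the proximal part widened to 50% of the array the proximal difference was 10.0 points. The count of segments 2-fold apart, which has no interval, was 40 instead of 9 with 1 CPM added instead of 10. The cause of these shifts was not tested, other than that later segments and a longer part are different sets.

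Further alternatives were chosen after the data were seen. From Trav17 on without Trav21-dv12, the shares were 0.727%, 1.60%, 3.78% and 0.805% in Rag1+, Ikzf2+, remaining and even-row cells, a difference of -0.87 points, so the Trav17 difference rests on that segment. Without dv segments the shares of Trav12 and above were 46.1%, 31.3%, 38.6% and 28.2% in the same order, and the differences 14.8 and 6.62 points. In cells without a Trdc UMI the shares were 59.8%, 35.4% and 43.2% in the odd-row classes, with differences of 24.3 and 9.19 points. With only the 67 segments that have at least 50% of their 90-base stretches to themselves, which hold 85.1% of the UMIs, they were 76.1%, 48.1%, 59.9% and 36.3%.

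By replicate number, no paired analysis was possible because the numbers in the labels could not be tied to the rows. The classes are paired within rows, and these differences are given as values; no test of them was run. UMIs of 1 cell are not independent, so the counting intervals are too narrow, and for which class most was not tested. The 10 richest cells gave 17.7% of the TRAV UMIs of Rag1+ and 6.89% of those of Ikzf2+ cells. A single cell held up to 20 and 52 TRAV UMIs.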
